A study of Mus musculus with 2 samples.

Results

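The nuclear genes of the mitochondrial respiratory chain were described in mouse heart cell cultures with and without knockdown of the piRNA FERPIR. They were the genes whose symbols begin with Nduf, Uqcr, Cox4 to Cox8 or Atp5, with Sdha, Sdhb, Sdhc and Sdhd. This rule uses names only and found 88 of the 10982 genes in the table. Of these, 36 encode complex I subunits, 4 complex II, 8 complex III, 16 complex IV and 15 complex V subunits, 8 encode complex I assembly factors, and Atp5s encodes a factor related to complex V. Ndufa4 and Ndufa4l2 were placed in complex IV, where the NDUFA4 protein is now assigned. The genes Atp5mpl, Cox4i2, Cox6b2, Cox8b and Cox8c match the rule in the annotation but had no row under these symbols. A gene that had no row is not read as low.

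The cultures were labelled as neonatal mouse cardiomyocytes from heart. In the first group the cells had received an antagomir, a modified antisense oligonucleotide, against FERPIR, and in the second a negative control. Both carry the further treatment label PBS. The labels name no strain, pooling of animals or time after transfection. There was 1 RNA sequencing library per group, so no test was possible and every value describes these libraries only. Levels are in FPKM, a measure per length of transcript and per library total, and the depth is unknown. The log2 ratio used throughout is log2 of (antagomir FPKM + 1) over (control FPKM + 1). Folds are on the same scale, which understates differences of low genes.

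The respiratory chain sits in the inner mitochondrial membrane. Complexes I and II take electrons from NADH and succinate, complexes III and IV pass them to oxygen, and complex V, the ATP synthase, uses the resulting proton gradient. All but complex II combine subunits encoded in the nucleus with others encoded in mitochondrial DNA. Heart muscle depends on this machinery more than most tissues, and some subunits of complex IV have isoforms found mainly in heart and skeletal muscle.

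The cell label was checked against marker genes. Of 15 cardiomyocyte markers 3 had a value, Tnnt2, Tnnc1 and Nppb, with a summed level of 32.3 FPKM in the antagomir and 12.7 FPKM in the control library. Tnnt2 and Tnnc1 were higher in the antagomir library, while Nppb was lower, with 5.28 FPKM in the antagomir and 6.86 FPKM in the control library. Myh6, Actc1, Ttn and 9 others had none. Of 10 fibroblast markers 6 had a value, summing to 341 FPKM in the antagomir and 548 FPKM in the control library, with Pdgfra alone the other way, at 1.66 FPKM in the antagomir and 1.19 FPKM in the control library. The smooth muscle markers Acta2, Tagln and Cnn1 summed to 885 FPKM in the antagomir and 1325 FPKM in the control library, most of it Acta2, while Tagln and Cnn1 were higher in the antagomir library. No endothelial marker out of 5 had a value, and the leukocyte list had 1 of 5, Lyz2, with 4.44 FPKM in the antagomir and 3.28 FPKM in the control library. The hemoglobin genes Hba-a1 and Hba-a2 summed to 20.8 FPKM in the antagomir and 14.4 FPKM in the control library. The label therefore rests on few defining genes here. Fewer cells of a type and less RNA per cell cannot be told apart in such bulk samples, and the part of cell composition in the differences below was not tested.

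The transcription factors NRF1 and GABPA, the second of the ETS family, are known regulators of nuclear respiratory genes. RefSeq promoter windows on build GRCm38.p6, from 250 bases before to 50 after an annotated start, were matched to 74 of the 88 genes. The NRF1 motif, GCGCA followed by any base and GCGC on either strand, was in a window of 19 of them (25.7%) and of 1083 of 8737 genes with a window (12.4%). The ETS motif CCGGAAG was in 18 of 74 (24.3%) on either strand, beside 21.7% of all genes. A match of letters is a description of the window, not a bound site. The 120 bases before the start are given for 4 genes, with NRF1 or ETS matches in capitals; the genes were chosen after their values were seen. Ndufa5, Uqcr11 and Atp5k have such a match and are among the genes with the largest log2 ratios of complexes I, III and V. Sdha has 3 NRF1 matches and a log2 ratio near 0. The NRF1 motif is partly its own reverse complement, so the Atp5k match counts on both strands. For Ndufa5 the window of the second annotated start is given. The 120 bases before its first annotated start hold 0 such matches.
Ndufa5, complex I, chr6:24527691-24527810, minus strand: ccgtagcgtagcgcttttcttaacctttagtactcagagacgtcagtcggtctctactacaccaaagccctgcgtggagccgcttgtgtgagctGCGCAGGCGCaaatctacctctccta
Sdha, complex II, chr13:74350241-74350360, minus strand: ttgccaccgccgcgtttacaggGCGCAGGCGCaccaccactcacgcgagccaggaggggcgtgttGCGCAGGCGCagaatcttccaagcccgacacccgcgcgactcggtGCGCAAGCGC
Uqcr11, complex III, chr10:80406822-80406941, minus strand: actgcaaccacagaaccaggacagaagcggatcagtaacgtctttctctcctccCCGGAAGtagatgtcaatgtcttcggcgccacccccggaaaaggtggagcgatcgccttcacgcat
Atp5k, complex V, chr5:108434400-108434519, minus strand: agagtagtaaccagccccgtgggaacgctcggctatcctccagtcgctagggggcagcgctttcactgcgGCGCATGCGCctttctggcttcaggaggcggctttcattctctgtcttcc

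Most nuclear respiratory chain genes had more FPKM in the antagomir library. All 88 reached 1 FPKM in the higher library, and 77 had a log2 ratio above 0, whereas 46% of all 10201 genes that reached 1 FPKM did. At least 1.5-fold higher were 37 of 88 (42.0%), beside 10.8% of all genes, and at least 1.5-fold lower were 3, Cox6a2, Atp5g2 and Ndufaf4 (3.41%), beside 13.4% of all genes. At 2-fold these counts were 13 and 1, beside 2.88% and 3.79% of all genes. The median log2 ratio was 0.49 over the 88 genes and -0.05 over all genes. Together the 88 genes held 11604 FPKM in the antagomir and 7816 FPKM in the control library, which is 3.71% of all FPKM in the antagomir and 2.65% in the control library.

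**Figure D1:**
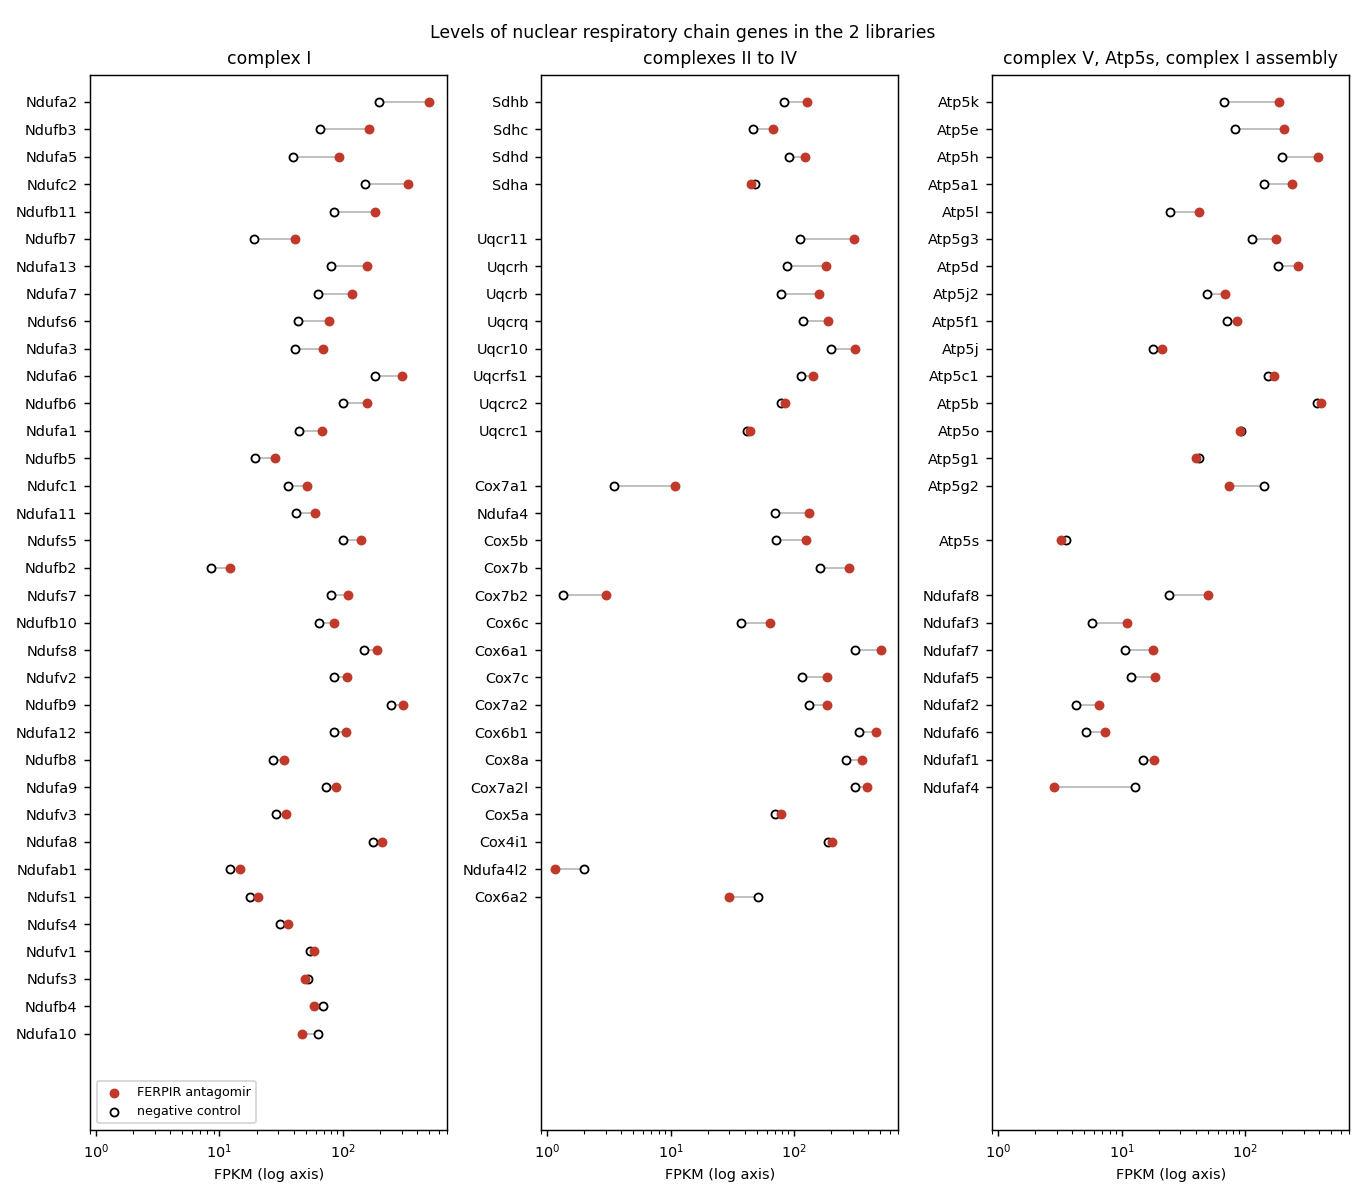
Level of 87 of the 88 genes in FPKM (log axis) in the antagomir library (filled) and the control library (open), ordered by log2 ratio within each class. The filled point lies to the right for most genes. Ndufaf4, Atp5g2 and Cox6a2 show the widest gaps the other way among genes above 5 FPKM.

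The log2 ratio also varied with transcript length. The genes are short, with a median of 892 nucleotides beside 2922 over all genes, and 72 of 88 fall in the shortest of 5 equal groups of genes by length. In that group 35 of 72 (48.6%) were at least 1.5-fold higher, beside 27% of all genes in it, and the median log2 ratios were 0.52 for the 72 genes and 0.27 for the 1968 other genes. Even there the respiratory genes were shorter, with a median of 751 nucleotides beside 1188 for the other genes. Across the 88 genes Spearman's rho between log2 ratio and length was -0.55, and across the 10104 other genes it was -0.30. These are descriptions across genes of the same 2 libraries. With a smooth trend over length and GC content subtracted, 15 of 88 (17.0%) were at least 1.5-fold higher, beside 8.38% of all genes, and 4 were at least 1.5-fold lower (4.55%), beside 12.4%. The median was then 0.17 for the 88 and -0.03 for all genes, and 62 of 88 were above 0. None of the 88 was 2-fold higher after this step, beside 1.73% of all genes, but with lengths from the longest transcript Atp5e and Ndufb7 were, at log2 ratios of 1.20 and 1.16. Ndufaf4, Cox6a2 and Atp5g2 were at least 2-fold lower after it, beside 3.67% of all genes.

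**Figure D2:**
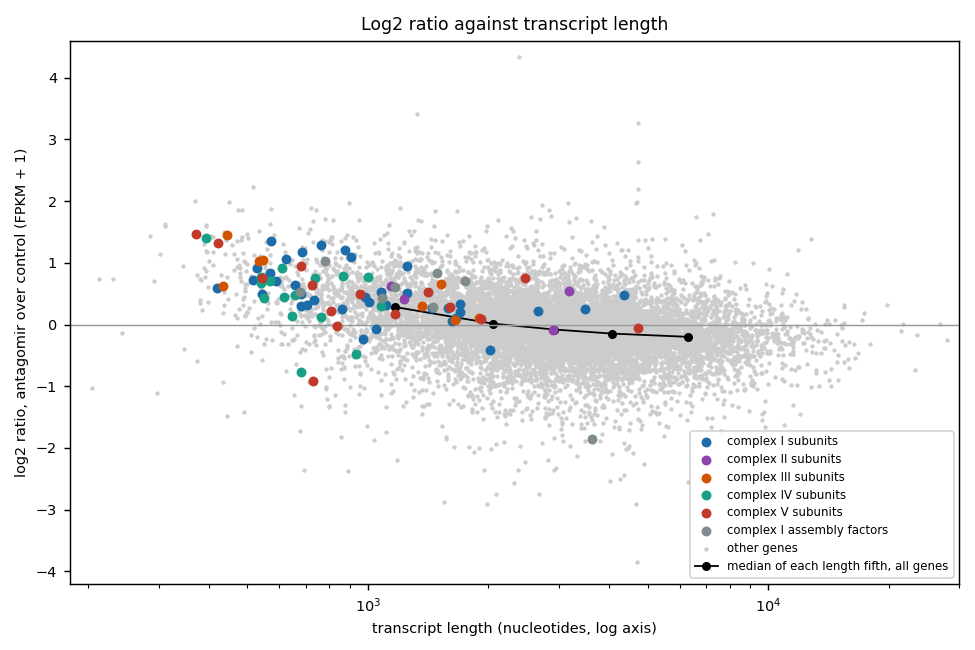
Log2 ratio (antagomir over control, FPKM + 1) against transcript length in nucleotides (log axis) for 87 genes of the 6 classes, in colour, and all other genes in grey. The black line joins the medians of 5 groups of genes by length and slopes downward. Most coloured points stand at the short end and above the line.

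In complex I, 13 of 36 subunit genes (36.1%) were at least 1.5-fold higher and 0 were 1.5-fold lower, beside 10.8% and 13.4% of all genes. The median log2 ratio was 0.46. With the length and GC trend subtracted 7 of 36 (19.4%) were 1.5-fold higher and 0 lower, beside 8.38% and 12.4% of all genes. The median was then 0.15. The 7 core subunits, which carry the redox centres and do the catalysis, differed little. Ndufv1, which holds the flavin that accepts electrons from NADH, had 58.2 FPKM in the antagomir and 54.0 FPKM in the control library. Ndufs1, an iron-sulfur subunit, had 20.7 FPKM in the antagomir and 17.7 FPKM in the control library. The wider of these differences was 1.16-fold, for Ndufs1. Ndufs3, a subunit of the quinone-binding part, had 49.1 FPKM in the antagomir and 51.8 FPKM in the control library, the only core gene with a log2 ratio below 0, at -0.08. Ndufv2, Ndufs8 and Ndufs7, 3 further iron-sulfur subunits, had log2 ratios of 0.33, 0.36 and 0.44. Over all 7 the median log2 ratio was 0.21, with 0 reaching 1.5-fold, and the core genes summed to 632 FPKM in the antagomir and 532 FPKM in the control library.

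The 29 accessory subunits of complex I surround the core and are needed for assembly and stability. They had a median log2 ratio of 0.52, with 13 at least 1.5-fold higher (44.8%), beside 10.8% of all genes. Ndufa2, in the matrix arm, had 499 FPKM in the antagomir and 194 FPKM in the control library, 2.56-fold higher, and lies on chromosome 18 from 36742332 to 36744557 in GRCm38. Ndufb3, in the membrane arm, had 162 FPKM in the antagomir and 65.7 FPKM in the control library, 2.44-fold higher. Ndufa5, in the matrix arm, had 92.8 FPKM in the antagomir and 39.4 FPKM in the control library, 2.32-fold higher. These 3 led the complex, and their log2 ratios with the trend subtracted were 0.81, 0.92 and 0.89. Ndufc2, Ndufb11 and Ndufb7, all of the membrane arm, were 2.25-fold, 2.13-fold and 2.10-fold higher. Their log2 ratios with the trend subtracted were 0.73, 0.76 and 0.45. The other 7 accessory genes past 1.5-fold, Ndufa13, Ndufa7, Ndufs6, Ndufa3, Ndufa6, Ndufb6 and Ndufa1, ran from 1.51-fold for Ndufa1 to 1.94-fold for Ndufa13. With the trend subtracted only Ndufa13 of these 7 stayed past 1.5-fold, at a log2 ratio of 0.63. The rest then ran from -0.10 for Ndufa1 to 0.28 for Ndufa7. Exons of Ndufa2 overlap those of Tmco6, and exons of Ndufb11 those of Rbm10. Exons of Ndufa13, Ndufs6, Ndufa3 and Ndufb6 also overlap those of other genes, so all these values are uncertain.

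At the other end of complex I, Ndufa10, a kinase-like subunit of the membrane arm, had 46.5 FPKM in the antagomir and 62.6 FPKM in the control library, a log2 ratio of -0.42. Ndufb4, another membrane arm subunit, had 58.0 FPKM in the antagomir and 68.6 FPKM in the control library. The pseudogene Ndufb4c holds 37.0% of the 50-nucleotide words of the Ndufb4 transcript, so reads could be shared. The accessory genes ran from -0.42 to 1.36 in log2 ratio. Core genes had longer transcripts than accessory ones, with medians of 1623 and 763 nucleotides, and with the trend subtracted the medians of the log2 ratio were 0.04 for the core and 0.16 for the accessory genes.

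Complex II, the succinate dehydrogenase shared with the citric acid cycle, has only 4 subunits, all encoded in the nucleus. Sdha, the flavoprotein that oxidises succinate, had 45.3 FPKM in the antagomir and 48.3 FPKM in the control library. Sdhb, the iron-sulfur subunit, had 127 FPKM in the antagomir and 82.3 FPKM in the control library, 1.54-fold higher. The membrane anchor Sdhc had 68.0 FPKM in the antagomir and 46.2 FPKM in the control library. Sdhd, the other anchor, had 122 FPKM in the antagomir and 91.6 FPKM in the control library. The catalytic Sdha was thus level while the other 3 were 1.33-fold to 1.54-fold higher. For Sdhc, with a transcript of 3171 nucleotides, the log2 ratio was 0.55 and 0.65 with the trend subtracted. Those of Sdhb and Sdhd, 0.62 and 0.41, were then 0.36 and 0.23, and Sdhb no longer reached 1.5-fold. The median of complex II was 0.48 as deposited and 0.29 with the trend subtracted.

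Complex III had a median log2 ratio of 0.64, and its small and large subunits stood apart. All 5 small subunit genes were at least 1.5-fold higher, beside 10.8% of all genes. Uqcr11 had 308 FPKM in the antagomir and 113 FPKM in the control library, 2.72-fold higher, with 66 of 10201 genes at a higher log2 ratio. Uqcrh, the hinge protein between cytochromes c1 and c, had 181 FPKM in the antagomir and 87.4 FPKM in the control library, 2.06-fold higher. Uqcrb, which lies near the quinone site, had 159 FPKM in the antagomir and 77.8 FPKM in the control library, 2.04-fold higher, and a pseudogene holds 27.2% of its 50-nucleotide words. Uqcrq and Uqcr10 were 1.58-fold and 1.54-fold higher. The large subunits and the electron-carrying Rieske protein were closer to level. Uqcrc1 had 44.2 FPKM in the antagomir and 41.9 FPKM in the control library, and its log2 ratio of 0.08 was below 0 as TPM. Uqcrc2 had 84.6 FPKM in the antagomir and 78.5 FPKM in the control library. Uqcrfs1, the Rieske iron-sulfur protein, had 142 FPKM in the antagomir and 115 FPKM in the control library. The small subunits had a median transcript of 535 nucleotides and the others one of 1653. With the trend subtracted, the median log2 ratios were 0.49 for the small and 0.09 for the other subunits. Of the 5 small genes 1 (20%), Uqcr11, was still 1.5-fold higher, beside 8.38% of all genes.

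**Figure D3:**
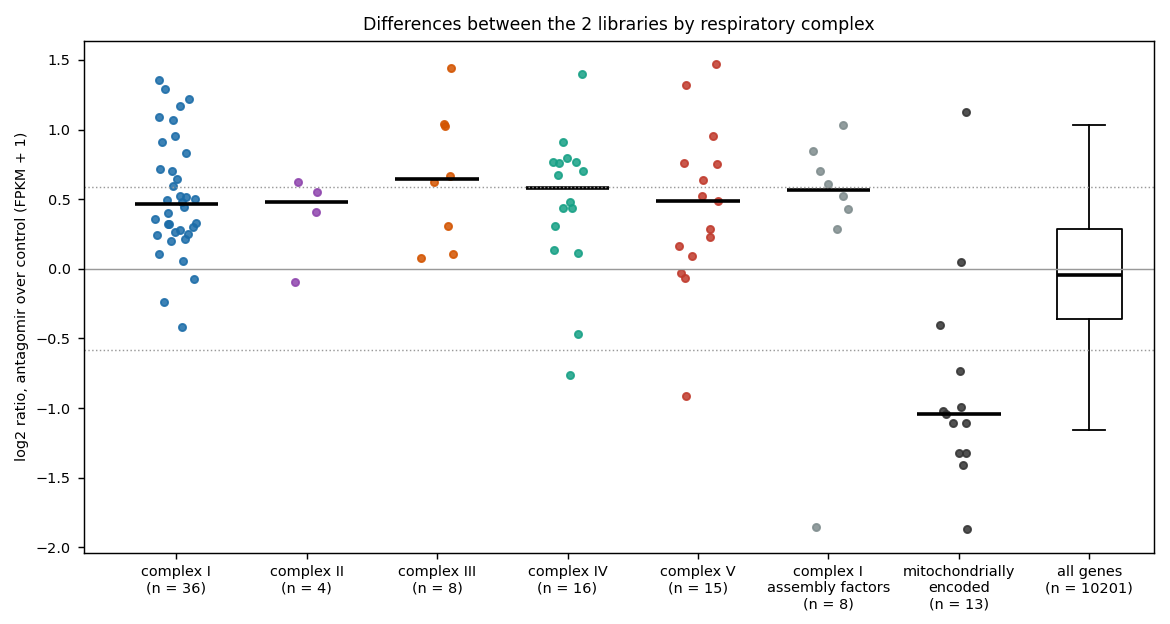
Log2 ratio (antagomir over control, FPKM + 1) of each gene by class, with the class median as a bar, beside the 13 mitochondrially encoded subunits and, as a box (quartiles, whiskers over the central 95%), all 10201 genes. Dotted lines mark 1.5-fold, and Atp5s is not plotted. All 6 nuclear class medians lie between 0.46 and 0.64, and the mitochondrially encoded median lies at -1.04.

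In complex IV, cytochrome c oxidase, all catalytic subunits are encoded in mitochondrial DNA, and the nuclear subunits surround them. Of 16 nuclear genes 8 were at least 1.5-fold higher (50%) and 1 was 1.5-fold lower (6.25%), beside 10.8% and 13.4% of all genes. Their median log2 ratio was 0.58. Ndufa4 had 132 FPKM in the antagomir and 70.0 FPKM in the control library, 1.88-fold higher. Cox5b, a subunit on the matrix side, had 124 FPKM in the antagomir and 71.2 FPKM in the control library, 1.73-fold higher. Cox7b had 280 FPKM in the antagomir and 164 FPKM in the control library, 1.70-fold higher. Cox6c, Cox7c and Cox7b2 were 1.69-fold, 1.60-fold and 1.70-fold higher, the last at only 3.00 FPKM in the antagomir and 1.35 FPKM in the control library. A pseudogene holds 36.7% of the 50-nucleotide words of Cox7c, and the predicted gene Gm11273 holds 25.9% of those of Cox5b. Cox4i1, a regulatory subunit that binds ATP, had 205 FPKM in the antagomir and 189 FPKM in the control library. Cox5a had 77.9 FPKM in the antagomir and 70.7 FPKM in the control library. Cox6b1 and Cox8a were 1.36-fold and 1.35-fold higher, and their isoforms Cox6b2, Cox8b and Cox8c had no row. Complex IV lost most of its shift with the length and GC trend subtracted: the median log2 ratio was then 0.06. Of its 16 genes 1 (6.25%), Cox7a1, was then 1.5-fold higher, beside 8.38% of all genes. With the longest transcript 3 were, Cox6c, Cox7a1 and Ndufa4, at log2 ratios of 0.81, 0.70 and 0.67, beside 8.49% of all genes.

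Tissue isoforms of complex IV differed in opposite directions. Cox6a2, the heart and skeletal muscle form, had 29.7 FPKM in the antagomir and 51.0 FPKM in the control library, 1.70-fold lower, and it lies on chromosome 7 from 128205435 to 128206387. Its general counterpart Cox6a1 had 506 FPKM in the antagomir and 311 FPKM in the control library. Cox6a2 therefore made up 5.54% of the pair in the antagomir and 14.1% in the control library. With the length and GC trend subtracted, the log2 ratio of Cox6a1 fell from 0.70 to 0.06 and that of Cox6a2 from -0.76 to -1.23. Cox6a2 shares exon sequence on the genome with Itgad, so its value is uncertain. Cox7a1, the heart and skeletal muscle form of another subunit, had 10.8 FPKM in the antagomir and 3.48 FPKM in the control library, 2.63-fold higher. The general form Cox7a2 had 184 FPKM in the antagomir and 132 FPKM in the control library. Cox7a2l, whose protein has been linked to supercomplexes of complexes III and IV, had 387 FPKM in the antagomir and 313 FPKM in the control library. Cox7a1 was 1.85% of these 3 in the antagomir and 0.78% in the control library. The 2 muscle isoforms thus differed in opposite directions, and so did the 3 cardiomyocyte markers with a value, with Tnnt2 and Tnnc1 higher and Nppb lower in the antagomir library. Ndufa4l2, the hypoxia-induced relative of Ndufa4, was low, at 1.15 FPKM in the antagomir and 1.99 FPKM in the control library.

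**Figure D4:**
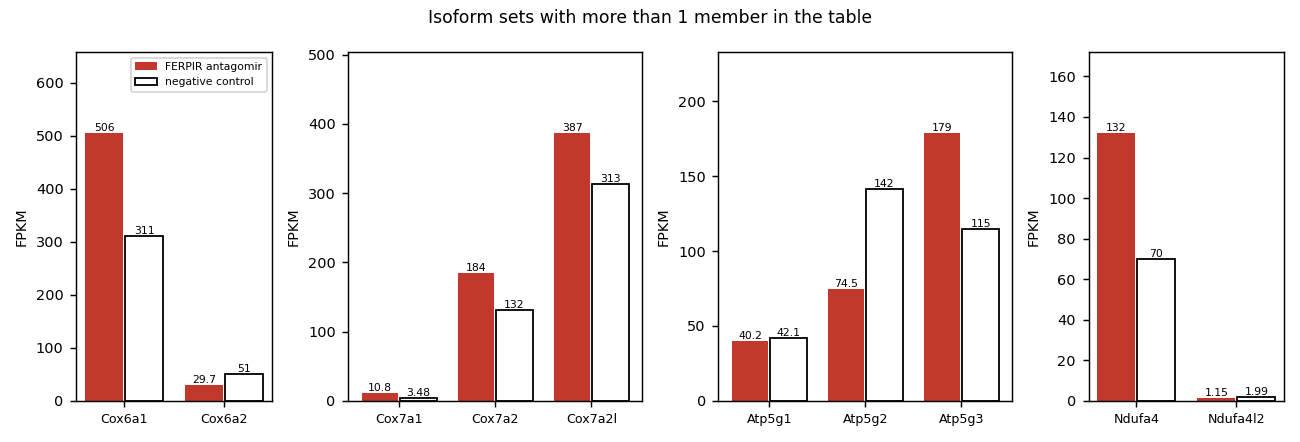
FPKM of isoform sets with more than 1 gene in the table, in the antagomir library (red bars, left) and the control library (white bars, right), on linear axes that start at 0. Cox6a2 and Atp5g2 are lower in the antagomir library, where Cox6a1, Atp5g3 and Cox7a1 are higher.

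Complex V had a median log2 ratio of 0.49. Of 15 subunit genes 6 were at least 1.5-fold higher (40%) and 1 lower (6.67%), beside 10.8% and 13.4% of all genes. With the length and GC trend subtracted 2 of 15 (13.3%), Atp5a1 and Atp5k, were 1.5-fold higher, beside 8.38% of all genes. The median of complex V was then 0.20. In its F1 head, where ATP is made, the beta subunit gene Atp5b had 410 FPKM in the antagomir and 385 FPKM in the control library. The alpha subunit gene Atp5a1 had 242 FPKM in the antagomir and 142 FPKM in the control library, 1.69-fold higher, although its exons overlap those of Haus1. Atp5c1, for the rotating gamma subunit, had 173 FPKM in the antagomir and 154 FPKM in the control library. Atp5e, for the small epsilon subunit, had 208 FPKM in the antagomir and 82.8 FPKM in the control library, 2.49-fold higher, and its log2 ratio of 1.32 was 0.57 with the trend subtracted. Atp5d, for the delta subunit, was 1.43-fold higher. Genes for the alpha and beta subunits, which alternate in the head, thus differed unequally. Atp5a1 has a transcript of 2471 nucleotides, and its log2 ratio was 0.76 as deposited and 0.79 with the trend subtracted.

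In the stalk and membrane part, Atp5k, for subunit e, which helps dimerise the enzyme, had 190 FPKM in the antagomir and 67.8 FPKM in the control library. At 2.77-fold it was the highest of the 88 genes, with 59 of 10201 genes above it, and its transcript of 371 nucleotides was the shortest of the 88. Its log2 ratio of 1.47 was 0.66 with the trend subtracted. Atp5h, for stalk subunit d, had 387 FPKM in the antagomir and 199.5 FPKM in the control library, 1.93-fold higher, but a pseudogene holds 46.0% of its 50-nucleotide words. Atp5o, for the stalk protein OSCP, had 91.6 FPKM in the antagomir and 93.5 FPKM in the control library, and its log2 ratio of -0.03 was above 0 when centred on the median. Atp5l, for subunit g, was 1.68-fold higher, with 52.5% of its words in a pseudogene, and Atp5j2, for subunit f, was 1.40-fold higher. Atp5f1 and Atp5j, for stalk subunits b and F6, were 1.22-fold and 1.17-fold higher. The median log2 ratio was 0.26 for the stalk genes and 0.75 for those of the small membrane subunits e, f and g, and with the trend subtracted it was 0.00 for the stalk and 0.21 for the membrane genes. Atp5s had 3.22 FPKM in the antagomir and 3.54 FPKM in the control library.

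The c-ring, which turns as protons pass, is built from identical mature subunits encoded by Atp5g1, Atp5g2 and Atp5g3. Atp5g2, on chromosome 15 from 102662864 to 102672352, had 74.5 FPKM in the antagomir and 142 FPKM in the control library, 1.89-fold lower. Atp5g3 had 179 FPKM in the antagomir and 115 FPKM in the control library, 1.56-fold higher. Atp5g1 had 40.2 FPKM in the antagomir and 42.1 FPKM in the control library. With the length and GC trend subtracted, the log2 ratio of Atp5g3 fell from 0.64 to 0.22, below 1.5-fold. That of Atp5g2 was -0.92 and then -1.40, and that of Atp5g1 was -0.06 and then 0.11. The sum of the 3 genes as deposited was nearly level, at 294 FPKM in the antagomir and 298 FPKM in the control library. Atp5g2 made up 25.4% of it in the antagomir and 47.4% in the control library, and Atp5g3 61.0% in the antagomir and 38.5% in the control library. The processed pseudogene Gm10175 holds 87.4% of the 50-nucleotide words of the Atp5g2 transcript, so its level depends on how shared reads were assigned, which the sources used here do not state.

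Assembly factors of complex I, which build the enzyme without being part of it, had median levels of 14.5 FPKM in the antagomir and 11.2 FPKM in the control library. The subunits of complex I had medians of 86.4 FPKM in the antagomir and 63.1 FPKM in the control library. Of the 8 assembly factors 7 had log2 ratios above 0 (87.5%), beside 46% of all genes. At least 1.5-fold higher were 4 (50%) and lower 1 (12.5%), beside 10.8% and 13.4% of all genes. With the length and GC trend subtracted 3 were 1.5-fold higher (37.5%), beside 8.38% of all genes. Their median log2 ratio was 0.57 as deposited and 0.31 with the trend subtracted. Ndufaf8, which in human cells works with NDUFAF5, had 50.1 FPKM in the antagomir and 24.1 FPKM in the control library, 2.04-fold higher. Ndufaf3 had 11.1 FPKM in the antagomir and 5.77 FPKM in the control library, 1.79-fold higher, with exons overlapping Impdh2. Ndufaf7, a methyltransferase, was 1.62-fold higher and Ndufaf5 was 1.53-fold higher. The log2 ratio of Ndufaf5 was 0.61, and 0.42 with the trend subtracted, below 1.5-fold. Ndufaf6, with 7.34 FPKM in the antagomir and 5.19 FPKM in the control library, and Ndufaf1, with 18.4 FPKM in the antagomir and 14.9 FPKM in the control library, were less than 1.5-fold apart, as was Ndufaf2 at 1.44-fold.

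Ndufaf4 was the exception. This gene, whose protein acts together with NDUFAF3 early in complex I assembly, lies on chromosome 4 from 24898083 to 24905001. It had 2.85 FPKM in the antagomir and 12.9 FPKM in the control library, a log2 ratio of -1.85 or 3.61-fold lower. Of 10201 genes 47 had a lower log2 ratio. With the length and GC trend subtracted it was -1.74, and its exons overlap no other annotated gene. Ndufaf3 and Ndufaf4, whose products act as partners, therefore lay at opposite sides of 0.

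**Figure D5:**
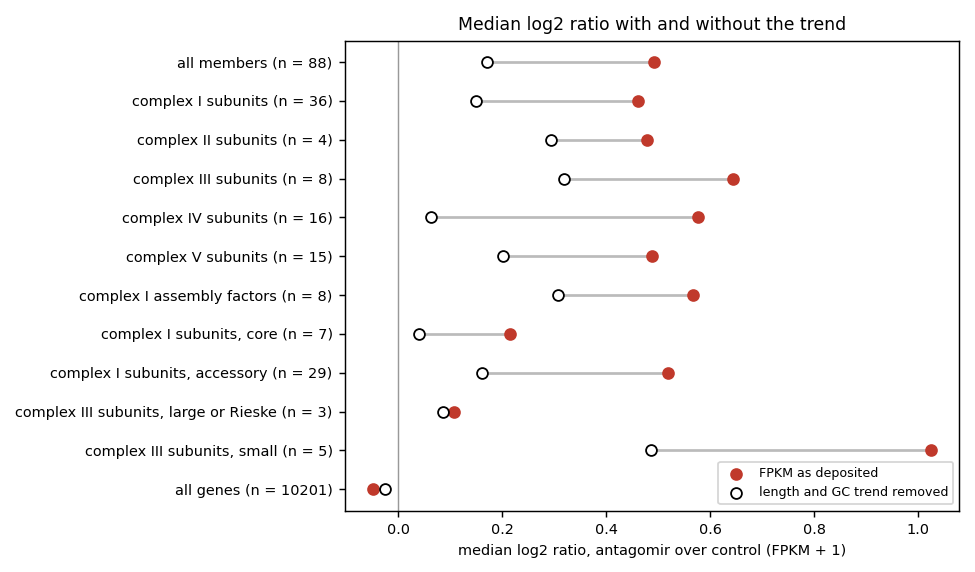
Median log2 ratio (antagomir over control, FPKM + 1) of each class with FPKM as deposited (filled) and after subtraction of the length and GC trend (open). All class medians move toward 0 and remain above it, from 0.04 for core subunits of complex I to 0.49 for small subunits of complex III, while all genes lie at -0.05 and -0.03.

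Mitochondrial DNA encodes the other 13 subunits, of which 10 were lower by 1.5-fold or more and 1, mt-Nd6, was higher by as much (76.9% and 7.69%, beside 13.4% and 10.8% of all genes). The exons of mt-Nd6 overlap mt-Nd5, and with the trend subtracted its log2 ratio of 1.13 was 0.48, below 1.5-fold. Among the lower genes, exons of mt-Nd1, mt-Nd2, mt-Nd4, mt-Nd4l, mt-Nd5, mt-Co1, mt-Co3, mt-Atp6 and mt-Atp8 overlap other genes as well. These values are uncertain too. With the trend subtracted 11 of the 13 were 1.5-fold lower and 0 higher, beside 12.4% and 8.38% of all genes. The mitochondrially encoded subunits of complex I summed to 2672 FPKM in the antagomir and 5937 FPKM in the control library. The nuclear subunits of complex I summed to 4201 FPKM in the antagomir and 2718 FPKM in the control library. For complex III mt-Cytb had 997 FPKM in the antagomir and 2147 FPKM in the control library, and the nuclear subunits summed to 1416 FPKM in the antagomir and 831 FPKM in the control library. Complex IV subunits of mitochondrial DNA summed to 4512 FPKM in the antagomir and 6287 FPKM in the control library, and the nuclear ones to 3007 FPKM in the antagomir and 2134 FPKM in the control library. Each of these complexes thus had a larger nuclear and a smaller mitochondrially encoded sum in the antagomir library. Complex V did too, with mitochondrially encoded sums of 1601 FPKM in the antagomir and 3665 FPKM in the control library and nuclear sums of 2481 FPKM in the antagomir and 1772 FPKM in the control library. In complex IV mt-Co2 was level, with 2065 FPKM in the antagomir and 2002 FPKM in the control library. FPKM are relative to a library total that includes these abundant genes. With levels rescaled to totals that leave out genes of mitochondrial DNA, hemoglobin genes and those for ribosomal proteins, the nuclear median was 0.44 and 32 of 88 genes were at least 1.5-fold higher, beside 11.3% of all genes.

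Other genes of the pathway, outside the symbol rule, were described from lists. Cyc1, the cytochrome c1 of complex III, had 165 FPKM in the antagomir and 130 FPKM in the control library, and its electron acceptor Cycs had 103 FPKM in the antagomir and 74.3 FPKM in the control library. Atpif1, the inhibitor of ATP synthase, had 146 FPKM in the antagomir and 66.7 FPKM in the control library, 2.17-fold higher. The exons of Atpif1 overlap Gm12999, and with the trend subtracted its log2 ratio of 1.12 was 0.53, below 1.5-fold. The small ATP synthase protein gene 2010107E04Rik, an older symbol of Atp5mpl, was 2.48-fold higher, with 112 FPKM in the antagomir and 44.7 FPKM in the control library. Usmg5, with exons overlapping Taf5, had 760 FPKM in the antagomir and 393 FPKM in the control library, 1.93-fold higher. In this list of 8 genes 3 of the 7 that reached 1 FPKM were 1.5-fold higher (42.9%), beside 10.8% of all genes. With the length and GC trend subtracted 2 were (28.6%), beside 8.38% of all genes.

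Among 22 assembly factors of complex IV, 8 were at least 1.5-fold higher and 2 lower, with a median log2 ratio of 0.19. These are 36.4% and 9.09% of the list, beside 10.8% and 13.4% of all genes. With the length and GC trend subtracted 4 were 1.5-fold higher (18.2%) and 2 lower (9.09%), beside 8.38% and 12.4% of all genes. The median was then -0.01. Pet100 was 2.37-fold higher and Cox20, a chaperone of the subunit COX2, was 2.08-fold higher, both with exons that overlap another gene. Coa7 had 2.19 FPKM in the antagomir and 5.31 FPKM in the control library, and Pet117 had 7.5e-05 FPKM in the antagomir and 4.12 FPKM in the control library. Pet117 reached 5 FPKM in neither library and its exons overlap those of Kat14, so its value is uncertain. Cox10, which makes heme for the oxidase, had 7.44 FPKM in the antagomir and 11.0 FPKM in the control library. Of 9 complex I assembly factors without Ndufaf names 0 reached 1.5-fold either way, and their log2 ratios ran from -0.31 for Ecsit to 0.51 for Timmdc1 and Nubpl. Of the complex II factors Sdhaf4 was 2.38-fold higher, the single member of 4 past 1.5-fold (25%, beside 10.8% of all genes). Of 5 complex III factors 2, Uqcc2 and Uqcc3, were at least 1.5-fold higher (40%, beside 10.8% of all genes), at 1.58-fold and 1.85-fold. With the trend subtracted 0 were, beside 8.38% of all genes, and Uqcc2 and Uqcc3 had log2 ratios of -0.05 and 0.51. Of 3 complex V factors 1, Fmc1, was at least 1.5-fold higher (33.3%, beside 10.8% of all genes), at 1.70-fold. Its log2 ratio of 0.76 was 0.08 with the trend subtracted.

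Of 9 regulators with a value 1 was at least 1.5-fold higher and 1 lower (11.1% each), which is near the 10.8% and 13.4% of all genes, and the median log2 ratio was -0.09. Nrf1 had 2.37 FPKM in the antagomir and 2.81 FPKM in the control library, and Gabpa, whose exons overlap those of Atp5j, had 7.39 FPKM in the antagomir and 7.90 FPKM in the control library. Esrra, an orphan nuclear receptor that activates respiratory genes, had 18.6 FPKM in the antagomir and 9.02 FPKM in the control library, 1.95-fold higher, with exons overlapping Trmt112. Pprc1, a coactivator of the PGC-1 family, had 2.84 FPKM in the antagomir and 7.18 FPKM in the control library, 2.13-fold lower. Exons of Pprc1 overlap those of Ldb1, so this value is uncertain too. Tfam, which packages mitochondrial DNA, had 26.2 FPKM in the antagomir and 21.3 FPKM in the control library. Ppargc1a had no value.

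Log2 ratios were also set beside the promoter matches. The 33 respiratory genes with an NRF1 or ETS match, such as those printed above, had a median log2 ratio of 0.50, and the 41 without had one of 0.49. For ETS alone the medians were 0.67 over 18 genes with a match and 0.48 over 56 without. For NRF1 alone they were 0.50 over 19 genes and 0.52 over 55. By class the ETS medians went in different directions. In complex V they were 0.95 over 5 genes with a match and 0.16 over 9 without. In complex IV they were 0.44 over 3 with and 0.77 over 9 without. For complex I they were 0.50 over 4 and 0.49 over 28, and for the assembly factors 0.66 over 2 and 0.61 over 5. For complex II they were 0.52 over 2 and -0.09 over 1, and for complex III 1.24 over 2 and 0.31 over 3. In the assembly factors the NRF1 medians were -0.62 over 2 genes with a match, Ndufaf4 among them, and 0.70 over 5 without. Ndufaf4 and Atp5g2, with lower levels in the antagomir library, each had an NRF1 match too, as did Sdha.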

How the data were processed

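RNA from 2 libraries, 1 per group, was compared from gene-level FPKM. Per the submitters' processing notes, the authors used cutadapt, HISAT2 and StringTie 1.3.3 with build GRCm38 to make the deposited FPKM values; settings, annotation, strand use in counting and depth are not stated in the sources used here. Per the labels' protocols, poly(A) RNA was selected and a stranded kit was used. Symbols on several lines were summed, leaving 10982 genes. Log2 ratios used a pseudocount of 1 FPKM and genes reaching 1 FPKM in the higher library. Length and GC content came from the principal transcript in GENCODE M21, and exon overlaps and copies (at least 20% of 50-nucleotide words shared with another gene) from the same release. The trend was a least-squares polynomial in log10 length and GC content over 10192 genes. Python 3.11.15, pandas 2.3.3 and numpy 2.4.6 were used, and scripts were tested on simulated data. The members, lists and motifs were chosen with earlier results of these data known. Named were class ends (4 highest and 3 lowest reaching 5 FPKM), 2-fold differences, isoform sets, core subunits and list ends; other genes were named after their values were seen. With 1 library per group no test was made. For 1 complex I gene no values of its own are reported here. Alternatives were 9 planned and 2 added settings.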

Additional observations from a re-analysis of the deposited data

How the results depend on the processing

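No paired analysis was possible because each group had 1 library. Without depth or replicates a median was taken as moved when it shifted by more than 0.1 on the log2 scale, and a count when it changed by more than 1.5 times. Medians and counts stayed within these limits with pseudocounts of 0.1 and 0.01, without a minimum, with a minimum of 5 FPKM, as TPM, centred on the median, and rescaled to totals that leave out genes of mitochondrial DNA, hemoglobin and ribosomal proteins. As TPM 30 genes were 1.5-fold higher, and Uqcrc1 changed sign. The trend over length and GC content moved most values: 15 genes were 1.5-fold higher, and medians were 0.17 for all 88, 0.15, 0.29, 0.32, 0.06 and 0.20 for complexes I to V and 0.31 for complex I assembly factors. In that setting 17 of 88 genes changed sign. With the longest transcript instead, chosen after seeing the data, the count was 21, the medians were 0.19 for all 88, 0.20, 0.27, 0.29, 0.04 and 0.25 for complexes I to V and 0.45 for assembly factors, and the log2 ratio of Cox6a1 was -0.01. Leaving out genes whose exons overlap another gene kept 56 of the 88, with 1 gene 1.5-fold lower and a complex IV median of 0.70, and leaving out the 11 with a near-identical copy, also chosen after seeing the data, gave a complex IV median of 0.46. These use fewer genes by construction. Depth and replicate error are unknown, so the precision of these differences is unknown too.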
